A study of Mus musculus with 12 samples.

Results

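Transcripts of 10 genes of hyaluronan and proteoglycan turnover were followed over 1 circadian day in the mouse urinary bladder. They were chosen by name, as every non-control probe whose gene name in the scanner files was Has1, Has2, Has3, Cd44, Tnfaip6, Adamts1, Adamts4, Adamts5, Timp1 or Spon2. These 10 genes of 27544 names on the array had 19 probes, of which 18 passed the filter on dim probes, and all 10 were among the 18397 genes tested. The samples were whole bladders of 10-week-old female C57BL/6 mice that were acclimated for 2 weeks to days split into 12 h light and 12 h dark, and then moved to constant darkness. The groups were circadian times (CT) 0, 4, 8, 12, 16 and 20 h, with 2 arrays each and 12 arrays in all. CT0 is subjective dawn, when mice begin to rest, and CT12 is subjective dusk, when they become active. All groups shared strain, sex, age and darkness, and no group was kept in light. How long the darkness had lasted, and whether each array held RNA of a single mouse, is not in the labels.

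Hyaluronan is a long, unsulfated sugar chain that synthases at the cell surface push out into the matrix. There it binds proteoglycans, which are core proteins carrying sulfated sugar chains, and it is held by surface receptors and reshaped by secreted proteins. Proteases of the ADAMTS family cut the core proteins, such as versican and aggrecan, and tissue inhibitors restrain metalloproteases. In the bladder, hyaluronan lies in the connective tissue beneath the urothelium, and sugar chains also coat the urothelial surface.

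The chosen genes did not share a time of day. Has2, Adamts4 and Spon2 had high levels around subjective dawn and low levels around subjective dusk, and they were chosen because these waves were already known from the same arrays. Their values are therefore a description and carry no test. Adamts1 and Adamts5, the closest relatives of Adamts4 among the chosen genes, had their highest mean level at CT12 on both of their probes. Cd44 differed little and was highest at CT20. Has1, Has3, Tnfaip6 and Timp1 had fitted waves of at most 1.54-fold, and no gene of these passed a test. By value, 4 of the 10 genes (Has1, Tnfaip6, Adamts1 and Adamts5) had their highest mean at CT12 and 3 (Has2, Cd44 and Adamts4) their lowest mean there. Neither of these counts has a share over all genes beside it, so they only describe the 10 genes. Fitted peaks lay between CT20 and CT4 for 5 of the 10 genes, against 32.6% of all genes. Those of Has1 and Tnfaip6 lay at CT6.7 and CT6.8, away from their highest mean.

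Levels are log2 signals on a scale where 0 is the 75th percentile of all probes on the same array. Level 0 stood for 782 to 901 intensity units, each array had 64.2% to 70.2% of its spots well above background, and no spot was saturated. Because probes differ in how strongly they bind, levels were compared between times for 1 probe and never between probes. Markers of smooth muscle (Myh11, Acta2 and 4 more) and of urothelium (Upk1a, Krt5 and 4 more) were above background on all 12 arrays, 6 of 6 in each list. Summed over each list and relative to the 75th percentile, smooth muscle markers ranged from 1334 to 1650 and urothelial markers from 330 to 549 over the arrays. In such bulk tissue, fewer cells of a type and less RNA per cell cannot be told apart. Slide 1 held CT0 and CT4, slide 2 held CT8 and CT12, and slide 3 held CT16 and CT20. Summed hepatocyte markers were 12.3, 30.6 and 39.9 on the second arrays of CT0, CT12 and CT20, against 0.576 to 6.92 on the other 9 arrays. Of the 6 markers on the array, 5 were above background on all 12 arrays. Taken singly, Alb, Apoa1, Apoa2, Fgb and Ahsg were highest on these second arrays. Ttr did not follow them, with log2 levels of -4.80, -3.68 and -2.62 there. The second CT0 array also had the most spots marked as outliers, 228 against 55 to 83 on the other arrays. Clock and clock-output genes gave the phase marks of this day. Fitted peaks were CT21.3 for Nfil3, CT22.5 for Arntl, CT9.5 for Dbp and CT12.7 for Per2.

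Has2 encodes the hyaluronan synthase that mouse embryos need to form a heart (probe on chromosome 15, 56729040 to 56729099, minus strand, mm7). Its log2 level was -1.44 and -1.32 at CT0, -1.55 and -1.14 at CT4, -2.11 and -1.78 at CT8, -2.79 and -3.33 at CT12, -2.65 and -2.90 at CT16, and -2.18 and -2.12 at CT20. The 4 arrays of CT0 and CT4 lay above all others, and those of CT12 and CT16 lay lowest, with overlap inside each of these pairs of times. Between them, both CT8 arrays lay above both CT20 arrays. The fitted 24 h wave had an amplitude of 0.90 ± 0.09 (log2, SE) and peaked at CT2.1 ± 0.38 h (SE). Its peak was 3.47-fold above its trough, with a range of 3.07 to 3.93 for the amplitude minus and plus 1 SE. The size of the wave depended on the handling of background: it was 2.58-fold with normexp correction and 2.51-fold in the authors' table. In linear terms the probe gave 85.3 to 394 intensity units.

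A second Has2 probe was designed to a cDNA clone and lies elsewhere on the chromosome (56755204 to 56755263, mm7). Its fitted wave was 2.16-fold with a peak at CT2.0 ± 1.5 h. Its levels were highest at CT4 (-3.73 and -3.96), and the arrays of CT8 lay far apart (-6.01 and -4.52). The fitted peak times of the probes were close, while the second wave was smaller and its peak time less certain.

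Adamts4 encodes an aggrecanase, a secreted protease that cuts aggrecan and versican (chromosome 1, 171229633 to 171229692, plus strand, mm7, a single probe). For Adamts4 the log2 level was -2.74 and -2.28 at CT0, -3.06 and -3.42 at CT4, -4.43 and -3.96 at CT8, -5.00 and -4.78 at CT12, -3.27 and -3.97 at CT16, and -2.58 and -3.24 at CT20. Both arrays of CT12 lay below all 10 others. The arrays of CT0 and CT20 overlapped at the top, as did those of CT4 with CT16 and CT20 in the middle. The fitted wave had an amplitude of 1.1 ± 0.13 and peaked at CT23.1 ± 0.45 h, with a peak 4.62-fold above its trough (range 3.85 to 5.54). The signal was dim, from 26.1 to 172 intensity units, though well above background on all 12 arrays, and the size of the wave depended on the handling of background: it was 2.18-fold with normexp correction and 2.12-fold in the authors' table.

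Spon2 encodes mindin, a secreted matrix protein of the F-spondin family that also takes part in innate immune recognition in mice (chromosome 5, 32276714 to 32276773, minus strand, mm7). Spon2 had log2 levels of 3.97 and 4.64 at CT0, 3.58 and 3.96 at CT4, 2.50 and 2.74 at CT8, 2.12 and 1.46 at CT12, 1.51 and 1.79 at CT16, and 3.79 and 3.60 at CT20. The times fell into a high set (CT20, CT0 and CT4), CT8 in between and a low set (CT12 and CT16), and the 3 sets did not overlap. Within the high set CT4 and CT20 overlapped, and within the low set CT12 and CT16 did. The fitted wave was the largest of the 10 genes, with an amplitude of 1.40 ± 0.14, a peak at CT0.8 ± 0.37 h and a peak 7.0-fold above the trough (range 5.79 to 8.46). A second probe (32277200 to 32277259) gave a 7.32-fold wave at CT0.9 ± 0.39 h. The used probe ranged from 2360 to 20770 intensity units.

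**Figure D1:**
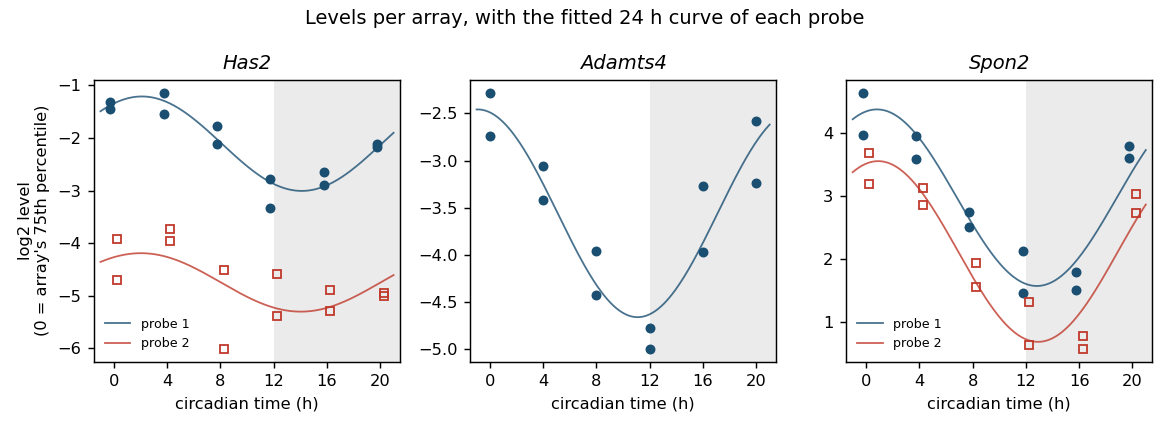
Log2 level (0 is the array's 75th percentile) of Has2, Adamts4 and Spon2 against circadian time in hours, with a point for each array, a symbol for each probe, the fitted 24 h curve as a line and the subjective night shaded. Means of the used probes (filled circles) are lowest at CT12 or CT16 and highest at CT0 or CT4, and the second Spon2 probe follows the first.

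Set at dusk against dawn, Has2 averaged -3.06 ± 0.39 at CT12 and -1.38 ± 0.08 at CT0 (log2, SD, n = 2 each), a difference of -1.68 ± 0.21 (SE). Adamts4 averaged -4.89 ± 0.16 at CT12 and -2.51 ± 0.33 at CT0, a difference of -2.38 ± 0.32. Spon2 averaged 1.79 ± 0.47 at CT12 and 4.30 ± 0.47 at CT0, a difference of -2.52 ± 0.28. As folds, the CT0 level was 3.21 times the CT12 level for Has2, 5.20 times for Adamts4 and 5.72 times for Spon2. CT0 lay on slide 1 and CT12 on slide 2. A difference between these slides cannot be told apart from one between dusk and dawn, here or below. The Adamts4 difference was -1.20 with normexp correction and -1.14 in the authors' table, and that of Has2 was -1.25 and -1.23. On the second Has2 probe the arrays overlapped, with -4.58 and -5.38 at CT12 and -3.93 and -4.70 at CT0, and with the mean of both probes the Has2 difference was -1.17 and neither it nor the wave was past the threshold. Late in the subjective night Spon2 was 2.04 ± 0.28 log2 units higher at CT20 than at CT16, against 0.72 ± 0.32 for Adamts4 and 0.63 ± 0.21 for Has2. The CT12 minus CT8 difference was -1.11 ± 0.21 for Has2, against -0.69 ± 0.32 for Adamts4 and -0.83 ± 0.28 for Spon2. Without the 3 arrays high in hepatocyte transcripts, the fitted waves were 3.02-fold for Has2, 4.63-fold for Adamts4 and 5.77-fold for Spon2, and those of Adamts4 and Spon2 were no longer past the threshold. The highest arrays of Adamts4 and Spon2 were both the second CT0 array, without which their waves were 4.34-fold and 6.40-fold. Summed mesothelial markers, 6 of 6 above background on all arrays, were 77.6 to 93.6 at CT12 and 96.6 to 101 at CT0. Taken singly, only Msln and Lrrn4 were lower at CT12 without overlap. Krt19, which had the largest signal in the sum, overlapped, as did Upk3b, Wt1 and Gpm6a. At CT0 the mean log2 level was 6.33 for Krt19, against 3.55 for Upk3b and 2.48 for Msln. The sum therefore mostly follows Krt19 and is no measure of mesothelium alone. The part of these markers in the differences was not tested.

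Adamts1 encodes a related protease that cuts versican and aggrecan and is known for matrix remodelling in the mouse ovary (chromosome 16, 85790724 to 85790783, minus strand, mm7). Its log2 level was 1.23 and 1.37 at CT0, 1.45 and 1.28 at CT4, 1.60 and 1.55 at CT8, 1.89 and 2.49 at CT12, 1.43 and 1.25 at CT16, and 0.46 and 0.47 at CT20. Both arrays of CT12 lay above all 10 others and both arrays of CT20 below all 10 others, while CT0, CT4 and CT16 overlapped. The difference of the means between CT12 and CT20 was 1.72 log2 units. The fitted wave was 2.23-fold (range 1.83 to 2.72), peaked at CT9.7 ± 0.94 h and did not pass the threshold (limma, adjusted p = 0.150). The test for any difference between times did not pass either (adjusted p = 0.0873). It passed with an intensity trend in the variance prior and without the first CT12 array. A second Adamts1 probe (85791871 to 85791930) gave a 2.24-fold wave at CT9.7 ± 1.1 h, with its highest levels at CT12 (-2.10 and -1.54) and its lowest at CT20 (-3.76 and -3.61).

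The 250 bases before the annotated start of Adamts1 are shown because Adamts1 had the largest fitted wave among the 7 genes that were not chosen for one. They lie at chr16:85803114-85803363 on the minus strand of GRCm38.p6 (RefSeq), and the capitals mark a match to TATAAA, 32 bases before the start.
Adamts1: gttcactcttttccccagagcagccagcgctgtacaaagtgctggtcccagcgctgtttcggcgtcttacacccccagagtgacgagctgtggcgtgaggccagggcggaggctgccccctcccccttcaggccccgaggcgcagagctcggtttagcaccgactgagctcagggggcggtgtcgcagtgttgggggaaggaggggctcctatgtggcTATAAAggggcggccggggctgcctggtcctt
This match is a description of the letters and not a site in use. TATAAA on either strand was held by 12.4% of 32851 windows of this length before RefSeq starts, and by 1 of the 5 chosen genes with such a window. The clock-related letters CACGTG (E-box), CACGTT (a variant E-box) and TTANGTAA (D-box) did not occur in the Adamts1 window on either strand, against 6.02%, 3.85% and 2.06% of all windows.

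Adamts5 encodes the main aggrecanase of mouse cartilage (chromosome 16, 85858359 to 85858419, minus strand, mm7). For Adamts5 the log2 level was 0.42 and 0.51 at CT0, 0.91 and 0.40 at CT4, 0.53 and 0.84 at CT8, 1.29 and 1.17 at CT12, 0.39 and 0.10 at CT16, and 0.24 and 0.35 at CT20. Both arrays of CT12 lay above all 10 others, and the arrays of all other times overlapped with at least 1 other time. The fitted wave was 1.61-fold (range 1.37 to 1.89), peaked at CT9.2 ± 1.3 h and did not pass (adjusted p = 0.297), and neither did the test for any difference (adjusted p = 0.172). A second probe (85854881 to 85854940) gave a 1.64-fold wave at CT8.1 ± 1.2 h and was also highest at CT12 (-3.62 and -3.76). Adamts1 and Adamts5 are neighbours on chromosome 16: their nearest probes lie 63 kb apart on mm7, with 1 other gene, not protein-coding, listed between them in the RefSeq table.

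Adamts1 averaged 2.19 ± 0.42 at CT12 and 1.30 ± 0.10 at CT0 (log2, SD, n = 2 each), a 1.86-fold difference (0.90 ± 0.18 log2, SE, adjusted p = 0.176). Adamts5 averaged 1.23 ± 0.08 at CT12 and 0.46 ± 0.06 at CT0, a 1.70-fold difference (0.77 ± 0.19, adjusted p = 0.257). Both genes thus ran opposite in sign to Adamts4, whose CT12 level was lower than its CT0 level, and neither difference passed the threshold. Without the first CT12 array the Adamts1 difference was 1.20 and passed (adjusted p = 0.0389, with 0.0389 to 0.569 over all settings), with the remaining CT12 array assumed to vary like the other times. Within slide 3, Adamts1 was lower at CT20 than at CT16 (-0.87 ± 0.18, adjusted p = 0.162), and within slide 2 it was higher at CT12 than at CT8 (0.62 ± 0.18, adjusted p = 0.272). With slide as a fixed block, its fitted wave was 3.35-fold with a peak at CT13.4 (adjusted p = 0.181, with 0.110 to 0.398 over all settings), and that of Adamts5 was 1.5-fold at CT15.0 (adjusted p = 0.683, with 0.236 to 0.683 over all settings). Summed markers of skeletal and slow muscle and of leukocytes were also higher at CT12 than at CT0 without overlap. Those of smooth muscle overlapped (1422 to 1641 at CT12 and 1442 to 1650 at CT0). Taken singly, Acta1, Ckm, Tcap and Cd163 were higher at CT12 without overlap, while Myh7, Tnnt1, Ptprc, Cd68, Csf1r and Cd3e overlapped. Summed skeletal and slow muscle markers, 5 of 6 above background on all arrays, were 69.7 to 79.3 at CT12 and 42.8 to 62.2 at CT0, and 37.0 to 44.2 at CT20. Summed leukocyte markers, 5 of 7 on all arrays and Cd79a on none, were 8.64 to 13.2 at CT12 and 6.70 to 8.07 at CT0, and 6.30 to 7.34 at CT20. Cd163 had the largest signal in the leukocyte sum, so that sum is no measure of leukocyte number alone. The 24 h wave of Cd163 passed the threshold (2.03-fold at CT10.5, limma, adjusted p = 0.0425). That of Tcap in the muscle list also passed (12.1-fold, limma, adjusted p = 0.0438). Summed fibroblast markers, 6 of 6 on all arrays, were 511 to 552 at CT12 and 421 to 530 at CT0, and 391 to 516 at CT20, with overlap between these times. Singly, the fibroblast marker Lum was higher at CT12 than at CT0 without overlap, Pdgfra was lower and the others overlapped. Adipocyte markers overlapped as a sum (218 to 427 at CT12 and 188 to 313 at CT0). Among them Lep and Cidec were higher at CT12 without overlap (3.18 and 2.15 log2 units), and Adipoq, Plin1 and Fabp4 overlapped. The part of all these markers in the Adamts1 and Adamts5 levels was not tested.

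Cd44 encodes the main cell-surface receptor for hyaluronan (chromosome 2, 102663537 to 102663596, minus strand, mm7). Its log2 level was 2.25 and 2.47 at CT0, 2.18 and 2.40 at CT4, 2.20 and 2.31 at CT8, 2.08 and 2.02 at CT12, 2.24 and 2.31 at CT16, and 2.57 and 2.53 at CT20. Both arrays of CT20 lay above all 10 others and both arrays of CT12 below all 10 others, while the other 4 times overlapped. The whole range of the means was 0.50 log2 units. The fitted wave was 1.27-fold (range 1.18 to 1.37) with a peak at CT22.2 ± 1.2 h and did not pass (adjusted p = 0.244), nor did the test for any difference (adjusted p = 0.230). Summed urothelial markers were also higher at CT20 (520.5 to 549) than at CT12 (330 to 415). So were the sums of mesothelial (101 to 102 against 77.6 to 93.6) and endothelial markers (3.76 to 4.22 against 3.43 to 3.57). The same held for markers of the female reproductive tract (9.35 to 9.75 against 7.90 to 9.27). Skeletal and slow muscle and leukocyte sums were lower at CT20, and those of the other lists overlapped. The part of these markers in the Cd44 levels was not tested.

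A second Cd44 probe was printed as 10 spots on each array, whose log2 signals had an SD of 0.0361 to 0.0639 within an array, so spot noise was small for it. It gave a 1.26-fold wave at CT21.1 ± 1.5 h, with its highest levels again at CT20 (1.31 and 1.27) and its lowest at CT12 (0.75 and 0.69). Another probe lay near background, was well above it on 10 arrays and went another way, with a 1.48-fold fitted wave at CT13.9. The window before the Cd44 start is shown because it was the only one of the 5 with CACGTT, the variant E-box. It lies at chr2:102901666-102901915 on the minus strand of GRCm38.p6 (RefSeq), and the capitals mark AACGTG, which is CACGTT read on the other strand, 30 bases before the start.
Cd44: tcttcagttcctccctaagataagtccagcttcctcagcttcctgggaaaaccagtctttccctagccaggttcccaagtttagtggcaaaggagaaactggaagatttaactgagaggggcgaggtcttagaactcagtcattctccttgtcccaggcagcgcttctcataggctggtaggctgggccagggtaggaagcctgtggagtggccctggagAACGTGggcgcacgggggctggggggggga
The letters CACGTT occurred on either strand in 3.85% of all 32851 windows. The letters AGGTCA, part of the sites of REV-ERB and ROR receptors, occurred on either strand in the windows of 2 of the 5 genes, Has1 (113 bases before the start) and Tnfaip6 (65 bases before it), and in 14% of all windows. None of the 5 windows held CACGTG or TTANGTAA. The 5 windows were those of Adamts1, Cd44, Has1, Timp1 and Tnfaip6.

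**Figure D2:**
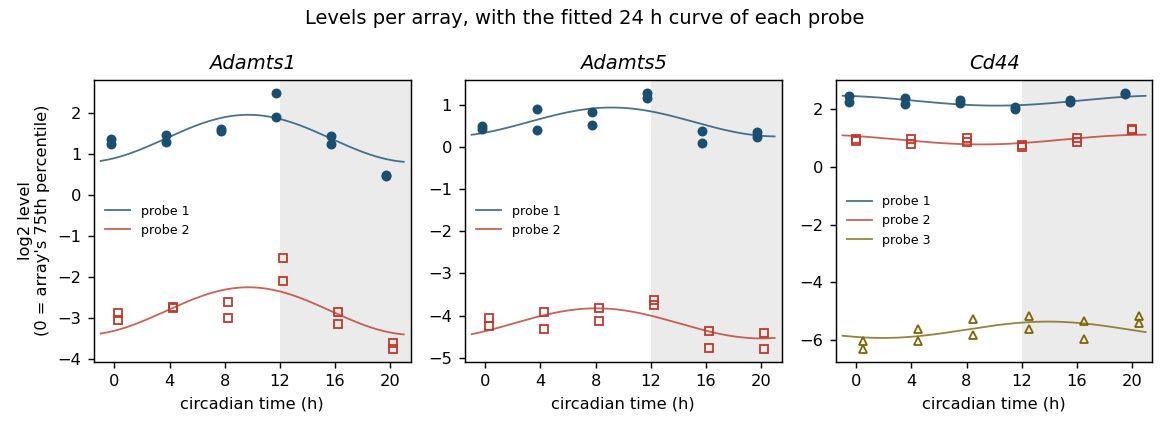
Log2 level (0 is the array's 75th percentile) of Adamts1, Adamts5 and Cd44 against circadian time in hours, with a point for each array, a symbol for each probe, the fitted 24 h curve as a line and the subjective night shaded. Both probes of Adamts1 and of Adamts5 are highest at CT12, and the first and second Cd44 probes are lowest at CT12 and highest at CT20.

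Has1 and Has3 encode the other hyaluronan synthases. Has1 (chromosome 17, 16014445 to 16014504, minus strand, mm7) had log2 levels of -4.10 and -4.56 at CT0, -4.10 and -3.05 at CT4, -3.87 and -4.58 at CT8, -3.06 and -3.77 at CT12, -5.14 and -4.56 at CT16, and -4.14 and -3.89 at CT20. The arrays of 1 time lay far apart (SD 0.74 at CT4), and the fitted 1.54-fold wave at CT6.7 ± 2.9 h did not pass (adjusted p = 0.697). Over the other settings its fitted peak lay anywhere from CT4.2 to CT20.9. Another Has1 probe was above background on no array and was not tested. Has3 (chromosome 8, 105482571 to 105482630, plus strand, mm7) had log2 levels of -4.19 and -3.89 at CT0, -4.47 and -4.52 at CT4, -4.13 and -3.89 at CT8, -4.27 and -4.68 at CT12, -4.21 and -3.73 at CT16, and -4.37 and -3.80 at CT20. Its fitted wave was 1.21-fold at CT19.3 ± 3.4 h (adjusted p = 0.763). Neither gene passed the test for any difference (adjusted p = 0.301 for Has1 and 0.430 for Has3). Both signals were dim, from 23.4 to 104 intensity units for Has1 and 33.5 to 62.6 for Has3. With normexp correction the waves were 1.23-fold for Has1 and 1.07-fold for Has3. Has2 had the largest fitted wave of the 3 synthases, and since it was chosen for that wave no test sets it against the others.

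Tnfaip6 encodes TSG-6, which moves protein chains onto hyaluronan and is induced in inflammation (chromosome 2, 52063795 to 52063854, plus strand, mm7). Its log2 level was -4.06 and -3.81 at CT0, -3.63 and -3.78 at CT4, -4.56 and -4.06 at CT8, -3.60 and -3.59 at CT12, -4.11 and -4.26 at CT16, and -4.10 and -4.49 at CT20. Both arrays of CT12 lay above the other 10, yet CT8, on the same slide, held the lowest array. The CT12 minus CT8 difference was 0.71 ± 0.19 (adjusted p = 0.265), the 24 h wave was 1.21-fold (adjusted p = 0.792), and the test for any difference gave an adjusted p of 0.210.

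Timp1 encodes an inhibitor of metalloproteases (chromosome X, 19307699 to 19307758, plus strand, mm7). Timp1 had log2 levels of -0.12 and 0.83 at CT0, -0.22 and -0.14 at CT4, 0.32 and 0.36 at CT8, 0.14 and 0.00 at CT12, -0.29 and -0.48 at CT16, and 0.33 and -0.10 at CT20. The second CT0 array stood above all others, while the first CT0 array lay among the rest. It is the array with the most outlier spots and 1 of the 3 high in hepatocyte transcripts, and their part in this level was not tested. The fitted wave was 1.24-fold at CT3.6 ± 3.5 h (adjusted p = 0.777), and 1.21-fold at CT7.7 without that array. The test for any difference did not pass (adjusted p = 0.388). The other probes (19305929 to 19305988 and 19305989 to 19306238) showed the same high second CT0 array (-1.48 against -2.49 on the first, and -2.07 against -3.12) and had 1.36-fold and 1.43-fold fitted waves.

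**Figure D3:**
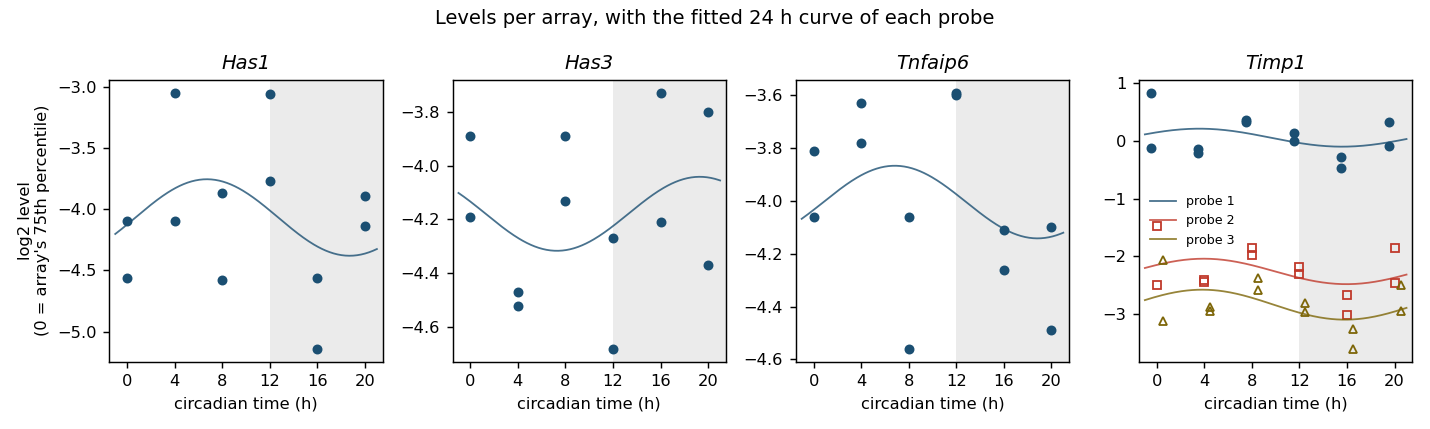
Log2 level (0 is the array's 75th percentile) of Has1, Has3, Tnfaip6 and Timp1 against circadian time in hours, with a point for each array, a symbol for each probe, the fitted 24 h curve as a line and the subjective night shaded; each panel has its own vertical range. None of the 4 genes passed a test over all genes, and the second CT0 array stands high on all 3 Timp1 probes.

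Counted over the 10 genes, the 24 h wave passed the threshold for 3, the genes chosen for it, and for 0.636% of all 18397 genes. Nothing can be read from that count. Of the 7 others 0 passed in limma, and 3 of 7 (Cd44, Adamts1 and Adamts5) had an unadjusted p under 0.05, as did 15.6% of all genes. The test for any difference passed for 0 of the 10 genes and for 0.0978% of all genes, and 4 of the 7 others (Cd44, Tnfaip6, Adamts1 and Adamts5) had an unadjusted p under 0.05, against 19.1% of all genes. Both arrays of CT12 lay below both arrays of CT0 for 5 of the 10 genes (Has2, Has3, Cd44, Adamts4 and Spon2), against 22.9% of all genes. They lay above them for 4 of the 10 (Has1, Tnfaip6, Adamts1 and Adamts5), against 17.2% of all genes, and overlapped for Timp1. Among the 7 genes not chosen for their waves, 2 lay below and 4 above. The CT12 minus CT0 difference passed for 3 of the 10 genes, those chosen, and for 0.196% of all genes, and the 3 became 0 in 10 of the 12 fits without an array. Of the 7 others 0 passed and 3 had an unadjusted p under 0.05 (Cd44, Adamts1 and Adamts5), against 10.4% of all genes. The fitted peak lay between CT20 and CT4 for 5 of the 10 genes, against 32.6% of all genes, and for 2 of the 7 others. The median fitted wave was 1.58-fold over the 10 genes, 1.27-fold over the 7 others and 1.18-fold over all genes.

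Because each slide held a pair of neighbouring times, the difference between those 2 times holds no difference between slides. None of the 21 such differences of the 7 other genes passed in limma, and 5 of them had an unadjusted p under 0.05, against 12.2% over all genes and steps. Few genes of any kind passed these tests: 0.00544% for CT4 minus CT0, 0% for CT12 minus CT8 and 0.00544% for CT20 minus CT16. Largest by value within a slide were the CT20 minus CT16 difference of Spon2 (2.04) and the CT12 minus CT8 difference of Has2 (-1.11). With slide as a fixed block, which keeps only differences within slides, the fitted waves were 12.5-fold at CT0.4 for Spon2, 4.12-fold at CT2.7 for Has2 and 3.74-fold at CT23.9 for Adamts4, none of them past the threshold. In the same fit Timp1 had a 2.36-fold wave (adjusted p = 0.379) and Tnfaip6 a 1.95-fold wave (adjusted p = 0.448).

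**Figure D4:**
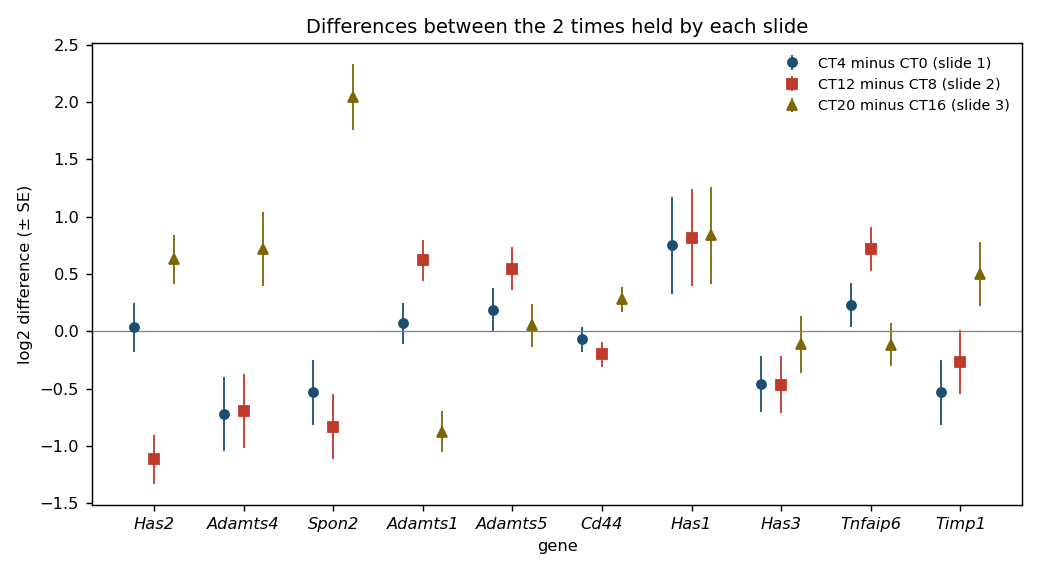
Log2 difference (later minus earlier time) between the 2 times on each slide for the 10 genes, with points for CT4 minus CT0, CT12 minus CT8 and CT20 minus CT16 and bars for 1 SE of the limma fit. Spon2 stands highest for CT20 minus CT16, Has2 lowest for CT12 minus CT8, and Adamts1 has opposite signs in these steps (0.62 for CT12 minus CT8 and -0.87 for CT20 minus CT16).

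Other genes of the pathway were counted from a list of 97, of which 84 were measured. None passed the 24 h test, the test for any difference or the CT12 minus CT0 test in limma, with 9, 19 and 5 at an unadjusted p under 0.05 (10.7%, 22.6% and 5.95%, against 15.6%, 19.1% and 10.4% of all genes), and their median fitted wave was 1.22-fold. Fitted peaks lay between CT20 and CT4 for 23 of the 84 (27.4%, against 32.6% of all genes). Hyaluronan breakdown held 5 measured genes, with no wave past the threshold: Hyal1, a lysosomal hyaluronidase, had a 1.25-fold wave (adjusted p = 0.469) and Hyal2, a surface hyaluronidase, a 1.18-fold wave (adjusted p = 0.352). Of 5 receptor genes, Lyve1, which marks lymphatic vessels, had a 1.35-fold wave (adjusted p = 0.539). Among 6 genes that supply sugar nucleotides, waves were 1.17-fold for Ugdh, which makes UDP-glucuronic acid, 1.19-fold for Gfpt1 and 1.32-fold for Gfpt2, the entry enzymes of UDP-hexosamine synthesis (adjusted p = 0.553, 0.481 and 0.683).

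Vcan, the versican core protein and a substrate of ADAMTS proteases, had a 1.54-fold wave at CT3.5 that did not pass (adjusted p = 0.585). The small proteoglycans Dcn (decorin, 1.18-fold) and Bgn (biglycan, 1.12-fold) did not pass either (adjusted p = 0.522 and 0.934). Hapln1, a link protein that ties proteoglycans to hyaluronan, had a 2.25-fold wave at CT12.9 and was above background on 6 arrays (adjusted p = 0.266). Ptx3, a protein that helps crosslink hyaluronan in the mouse ovary, had a 1.81-fold wave at CT4.8 (adjusted p = 0.459). Of 12 other ADAMTS genes none passed. Adamts15 had a 1.56-fold wave at CT3.1 (adjusted p = 0.263) and Adamts9 a 1.47-fold wave at CT16.8 (adjusted p = 0.642). The inhibitors Timp2 (1.18-fold) and Timp3, the main known inhibitor of ADAMTS4 and ADAMTS5 (1.08-fold), did not pass (adjusted p = 0.521 and 0.845). Spon1, the founding F-spondin, had a 1.55-fold wave at CT9.2 (adjusted p = 0.481), on the other side of the day from Spon2 by value. Singled out after the values were seen, Sdc4, a cell-surface proteoglycan, had the lowest adjusted p of the list (1.27-fold at CT19.3, adjusted p = 0.101) and passed with normexp background correction alone of the settings tried, and Adamts16 had the largest fold (5.54) on a probe above background on 7 arrays (adjusted p = 0.235).

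**Figure D5:**
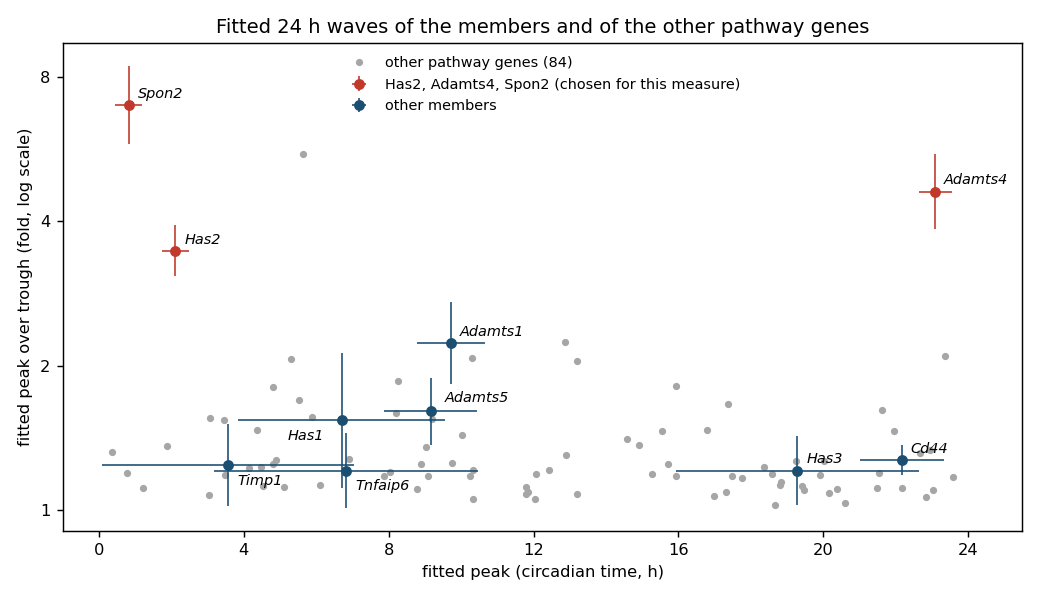
Fitted peak over trough (fold, log axis) against fitted peak time (circadian time in hours) for the 10 chosen genes, with bars for 1 SE, and for 84 other pathway genes in grey. Spon2, Adamts4 and Has2 stand apart between CT23.1 and CT2.1 because they were chosen by this measure, Adamts1 and Adamts5 sit near CT9 to CT10, and the high grey point is Adamts16 at 5.54-fold.

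The genes whose levels were most like those of the 3 chosen for their waves were ranked by Pearson correlation over the 12 arrays among 13650 named genes above background on all arrays. These correlations are descriptions, since the 12 points share slides and the 24 h cycle. Most like Spon2 were Gal3st4, a sulfotransferase of galactose (r = 0.937, Spearman 0.832), Lta4h, a leukotriene B4 synthesis enzyme (0.911, Spearman 0.951), Sh3pxd2b, a podosome adaptor (0.908), Dusp18, a phosphatase (0.896), and Gas7 (0.893). Most like Has2 were Sh3pxd2b (r = 0.954, Spearman 0.930), Dusp18 (0.929), Dapk1 (0.915), Thra, a thyroid hormone receptor (0.899), and Gal3st4 (0.891). Most like Adamts4 were Cerk, the ceramide kinase (r = 0.918, Spearman 0.895), Foxs1 (0.916), Leo1 (0.913), Arntl (0.896) and Spsb4 (0.877). Gal3st4, Sh3pxd2b and Dusp18 stood on the lists of both Spon2 and Has2, and the list of Adamts4 shared no gene with either. Arntl, the clock activator BMAL1 with an 8.95-fold wave, was thus the fourth most like gene for Adamts4, whose fitted peak at CT23.1 ± 0.45 h lay close to that of Arntl at CT22.5 ± 0.35 h.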

How the data were processed

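Total RNA of whole bladder was labelled with Cy3 and hybridised to Agilent mouse arrays, 1 sample each. The scanner files, as deposited, give each spot's intensity from Feature Extraction 10.5.1.1, per the file headers, with yes-or-no marks for outliers and background. The authors' deposited table of log2 values, whose normalisation is not given in the sources used here (the submitters' processing notes name R 2.8.1), served as an alternative. From log2 processed signals, outlier spots were dropped, spots averaged per probe and the array's 75th percentile subtracted. Each gene was represented by its brightest probe, and genes well above background on at least 4 of 12 arrays were kept. limma 3.58.1 (R 4.3.3) fitted a 24 h cosine and sine (F-test) and a 1-way model over times. The Benjamini-Hochberg adjustment of p-values ran over all 18397 genes, with a threshold of 0.05. The scripts were tested on simulated data. The labels do not say that arrays are separate mice, so p-values measure the spread between arrays. The 10 genes, the lists and the tests were chosen with earlier results of these data known. The rule for named genes took the 10 genes, fixed pathway and clock genes, and the 5 most correlated genes for Has2, Adamts4 and Spon2. Hmmr and Hspg2, also in it, were not among the genes tested. Coordinates of probes come from the array files (mm7), for which no gene annotation was used here to place exons. Alternatives covered background correction, scaling, the authors' table, filter, probes, replicate number, slide, the variance prior and leaving out arrays.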

Additional observations from a re-analysis of the deposited data

How the results depend on the processing

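Has2, Adamts4 and Spon2 were chosen for their waves on these same arrays. How steady their calls stayed is therefore a description and no test. The count of chosen genes with a 24 h wave, 3 in the main setting, was 2 or 3 in 11 of 13 other settings. It was 0 with slide as a fixed block and 1 (Has2) without the 3 arrays highest in hepatocyte markers, where fewer arrays entered the fit. None of the 7 other genes passed the wave test in any setting. The Adamts4 wave, 4.62-fold in the main setting, was 2.18-fold with normexp and 2.12-fold in the authors' table, and past the threshold in both. That of Has2, 3.47-fold in the main setting, was 2.58-fold and 2.51-fold, also past the threshold in both. The CT12 minus CT0 count, 3 in the main setting, was 2 with quantile scaling, the authors' table and every probe on its own. In each of these Has2 and Spon2 passed and Adamts4 did not. For CT12 minus CT0 the 3 became 0 with no filter on dim probes, 0 without those 3 arrays, 1 with the mean of all probes of a gene and 1 with the replicate block, and ranged from 0 to 3 with 1 array left out. It was 0 without 10 of the 12 arrays, 2 without the first CT0 array and 3 without the first CT12 array, where Adamts1 was among them. For any difference between times, 0 became 2 with normexp or with the authors' table, 3 with an intensity trend (Adamts1, Has2 and Spon2) and 1 with quantile scaling, median scaling, the stricter filter, the mean of probes or every probe on its own, and ranged from 0 to 1 with 1 array left out. No difference within a slide passed for a chosen gene in any setting. The pathway list went from 0 to 1 (Sdc4) with normexp. No call changed direction, and the cause of the other changes was not tested.

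Over all genes, the 117 waves became 62 with median scaling, 50 with no filter, 235 for every probe on its own, 7 with slide as a fixed block, 33 with slide as a random block (correlation 0.154), 18 without the 3 arrays and 42 to 119 with 1 array left out. The 18 genes with any difference became 52 with normexp, 47 with the authors' table, 33 with the stricter filter, 48 with an intensity trend, 2 with slide fixed, 0 without the 3 arrays and 7 to 120 with 1 array left out (120 without the first CT0 array). The 36 genes that differed between CT12 and CT0 became 13 with no filter, 0 without the 3 arrays and 4 to 154 with 1 array left out (4 without the second CT12 array, 154 without the first CT0 array). The 2 calls within slides became 0 to 8 in the other settings and 0 to 246 with 1 array left out, 246 without the first CT0 array. The labels do not say whether equal replicate numbers mark a shared origin. Deviations of same-numbered arrays correlated at -0.20 to 0.44 over 15 pairs of times (median 0.17, 10 of 15 over 0.1), so not every array was most like its own number. The block was kept as an alternative, and pairing is not settled. With the replicate block the CT12 minus CT0 calls of Has2 and Adamts4 were lost and that of Spon2 was not, and 99 waves and 48 differences between CT12 and CT0 passed. CT12 minus CT0 could not be estimated with slide as a fixed block, nor the 1-way fit with slide as a random block, because each time lies on 1 slide. The number of arrays limits the precision.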
